A study of Homo sapiens with 6 samples.

Results

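The EGF receptor family was examined in RNA sequencing of KYSE150 cells through 10 genes, out of the 67140 gene identifiers counted. They were chosen by name as the receptors EGFR, ERBB2 and ERBB3, the ligands AREG, EREG, TGFA, HBEGF, BTC and EPGN, and the feedback inhibitor ERRFI1. KYSE150 is an established human esophageal squamous cell carcinoma (ESCC) line. One group of 3 samples carried a control hairpin (shCtrl) and the other group of 3 carried a hairpin against the long noncoding RNA AC007128.1 (shAC007128.1). Both hairpins were delivered by lentivirus with puromycin selection, and the cells were grown in RPMI medium with 10% fetal bovine serum. With 1 cell line, 1 hairpin and 1 control, an effect of AC007128.1 and any other difference between the lines cannot be told apart. The labels do not say whether the samples of a group were separate cultures, so p-values measure the spread between these samples, which may be technical. The comparison asks how the transcriptome of ESCC cells differs when AC007128.1 is targeted, and here how the receptors and ligands that stand upstream of MAPK signaling differ.

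Receptors of this family sit in the plasma membrane and pair when a ligand binds, which activates a tyrosine kinase inside the cell and, through adaptors, RAS, ERK, PI3K and STAT signaling. The ligands are made as membrane-bound precursors that metalloproteases such as ADAM17 cut loose, so a cell can stimulate itself and its neighbours. In squamous epithelia EGFR is the main receptor of the family and drives growth and migration, and its gene is often amplified in ESCC.

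Libraries were deep, with 65140326 to 78610457 counts in shCtrl and 55764405 to 60158244 in shAC007128.1, so that 3 counts corresponded to 0.0373 to 0.0546 CPM, which is the count scaled to the size of the library. The targeted AC007128.1 (ENSG00000229970) had counts of 69, 33 and 53 in shCtrl and 18, 37 and 15 in shAC007128.1. The groups overlapped, and its log2 fold change was -0.77 (standard error, SE, 0.51, edgeR adjusted p = 0.271), so a difference in the targeted gene was not detected at this depth. With each library left out in turn it ran from -1.29, without shAC007128.1 replicate 2 (edgeR adjusted p = 0.0959), to -0.51, without shCtrl replicate 1 (edgeR adjusted p = 0.562). By qPCR, the authors reported that their hairpin lowered AC007128.1 RNA. All 10 squamous epithelial markers examined were detected, although SOX2 averaged only 0.434 CPM in shCtrl. Among the leukocyte markers, TYROBP had no count in any sample, and PTPRC and LYZ averaged at most 0.106 CPM in either group. CD3E averaged 0.463 CPM in shCtrl and 0.707 in shAC007128.1 and did not pass, and CD68, a lysosomal membrane protein gene, averaged 63.8 and 17.5 CPM and was called lower.

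Counts were scaled with edgeR's TMM factors and tested with its quasi-likelihood test over 19254 genes that passed a filter on low counts. A gene passed when its p, adjusted by Benjamini-Hochberg over these genes, was at most 0.05, and it was called when it also differed at least 2-fold. Of the 10 family genes 9 entered the test, and BTC did not because its counts were too low. Among these 9 genes 3 passed as higher in shAC007128.1 cells (ERRFI1, TGFA and ERBB2), 4 passed as lower (EGFR, HBEGF, AREG and ERBB3) and 2 did not pass (EREG and EPGN). Over all genes tested 21% passed as higher and 19.8% as lower, 40.8% together. Only EGFR was called lower and none was called higher, where 10.1% and 5.57% of all genes were. The groups did not overlap in 7 of the 9 genes, against 55.2% of all genes. The median log2 fold change of the 9 genes was -0.36, against -0.02 over all genes tested.

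**Figure D1:**
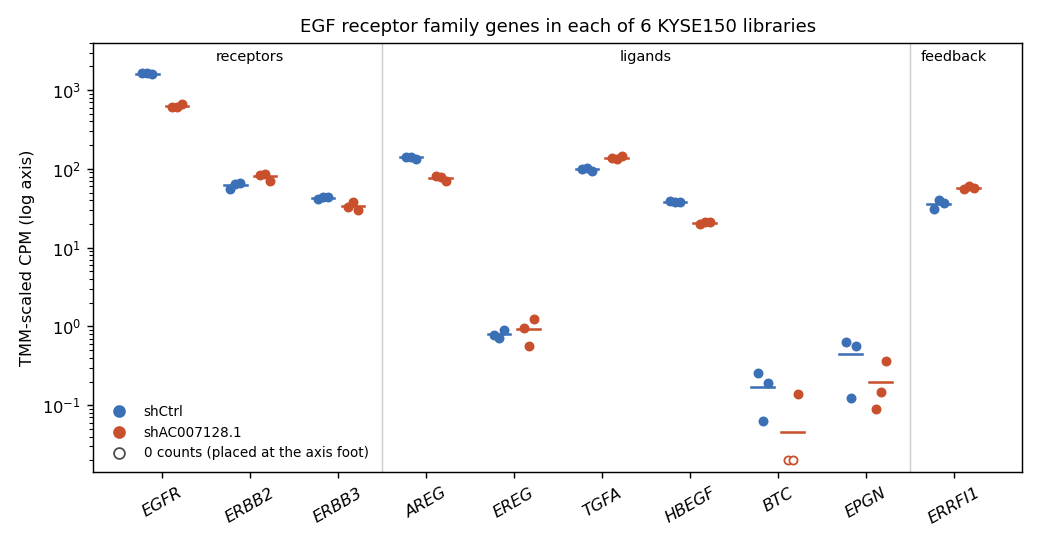
TMM-scaled CPM of the family genes in each library on a log axis, with 1 point per library, the group mean as a line and open points for libraries at 0 counts. EGFR, AREG, HBEGF and ERBB3 lay lower in every shAC007128.1 library, and TGFA, ERBB2 and ERRFI1 higher, while EREG, EPGN and BTC had few counts and overlapped.

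The promoter sequences of the passed genes with the largest fold changes are shown first, with that of EREG as the neighbour of AREG that did not pass. RefSeq (GRCh38.p14) gave promoter entries for 9 of the 10 genes. Each line below holds the 250 bases before the first annotated start, read 5′ to 3′ on the strand of the gene. The windows are chr7:55018767-55019016 (plus) for EGFR, chr4:74444886-74445135 (plus) for AREG, chr4:74364895-74365144 (plus) for EREG, chr5:140346604-140346853 (minus) for HBEGF and chr1:8026310-8026559 (minus) for ERRFI1. Capitals mark matches on either strand to 4 motifs: the TATA box TATAAA, the AP-1 site TGANTCA, the cyclic AMP response element TGACGTCA and the GC box GGGCGG, or their reverse complements.
EGFR: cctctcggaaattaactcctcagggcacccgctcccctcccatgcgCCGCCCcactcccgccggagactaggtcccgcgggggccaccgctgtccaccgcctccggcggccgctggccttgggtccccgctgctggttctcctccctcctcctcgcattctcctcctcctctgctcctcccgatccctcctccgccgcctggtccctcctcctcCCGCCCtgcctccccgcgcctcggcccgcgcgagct
AREG: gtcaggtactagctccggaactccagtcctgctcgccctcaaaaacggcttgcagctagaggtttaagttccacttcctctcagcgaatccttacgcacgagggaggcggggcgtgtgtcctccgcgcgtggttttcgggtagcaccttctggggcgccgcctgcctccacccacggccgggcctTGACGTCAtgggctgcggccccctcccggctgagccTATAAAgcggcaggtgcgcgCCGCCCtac
EREG: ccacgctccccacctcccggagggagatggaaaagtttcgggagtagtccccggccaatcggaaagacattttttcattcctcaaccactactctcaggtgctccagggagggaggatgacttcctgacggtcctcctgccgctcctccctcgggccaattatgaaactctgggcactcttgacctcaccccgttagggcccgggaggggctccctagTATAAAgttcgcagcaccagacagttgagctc
HBEGF: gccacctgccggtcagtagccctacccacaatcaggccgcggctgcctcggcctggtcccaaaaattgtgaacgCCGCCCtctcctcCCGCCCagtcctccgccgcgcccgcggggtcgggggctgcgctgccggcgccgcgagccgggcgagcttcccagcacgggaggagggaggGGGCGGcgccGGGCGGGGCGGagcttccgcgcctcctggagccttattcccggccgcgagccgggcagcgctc
ERRFI1: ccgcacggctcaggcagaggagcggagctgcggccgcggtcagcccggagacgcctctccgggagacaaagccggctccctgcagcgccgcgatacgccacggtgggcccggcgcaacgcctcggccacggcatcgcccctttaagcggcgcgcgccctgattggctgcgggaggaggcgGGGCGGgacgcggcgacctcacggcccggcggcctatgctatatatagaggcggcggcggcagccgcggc

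The AREG window held a TATA box whose first base lay 29 bases before the start, the response element at 65 bases and a GC box at 9 bases. The EREG window, for the other chromosome 4 ligand with a printed sequence, had a TATA box at 32 bases and no match to the other 3 motifs. The printed EGFR window had 2 GC boxes and no TATA box, HBEGF had 5 GC boxes, a pair of which overlap by 1 base, and ERRFI1 had 1 GC box. Of the 34943 RefSeq windows of this length, 10.75% held TATAAA, 6.59% TGANTCA, 1.63% TGACGTCA and 42.55% GGGCGG. Another RefSeq entry for EGFR, chr7:55109589-55109838, with its start 90822 bases downstream of the first, was 38.8% G or C and held 4 matches, all to TATAAA or TGANTCA. In the other windows not printed, TGFA had 3 GC boxes in its first entry, EPGN a TATA box at 29 bases and ERBB2 an AP-1 match, and BTC had none of the 4. The printed windows were 73.6% G or C for EGFR, 65.2% for AREG, 58% for EREG, 76.4% for HBEGF and 75.2% for ERRFI1, against a median of 58% over all windows. These matches describe letters and were not tied to binding or to use of the start in these cells.

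Among the receptors, EGFR, a receptor for all the listed ligands, was lower in shAC007128.1 cells while ERBB2 was slightly higher and ERBB3 slightly lower. EGFR (ENSG00000146648, hg38 chr7:55019017-55211628, plus strand) stood at 1625, 1632 and 1616 CPM in shCtrl replicates 1, 2 and 3 and at 606, 607 and 658 in shAC007128.1 replicates 1, 2 and 3. The shCtrl libraries were nearly identical and the groups were far apart. The means were 1624 ± 8.25 CPM (SD, n = 3) and 624 ± 29.9, so the shAC007128.1 level was 38.4% of control. Its log2 fold change of -1.38 (SE 0.06, edgeR adjusted p = 1.6e-05) was the only one of the family beyond 2-fold that passed. The alternatives gave -1.45 to -1.36. As this is bulk RNA, fewer cells expressing the gene and less RNA per cell cannot be told apart. The gene shares 186 exonic bases with the antisense EGFR-AS1, which stood at only 1.34 to 2.34 CPM in the 6 libraries.

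ERBB2, which has no known ligand and is the favoured partner of the other receptors, lies on chr17:39687914-39730426 (plus strand). It had 55.6, 65.2 and 65.6 CPM in shCtrl and 84.6, 86.1 and 69.7 in shAC007128.1. Every shAC007128.1 library lay above every shCtrl library, but the highest shCtrl value and the lowest shAC007128.1 value were close. The means were 62.1 ± 5.67 and 80.1 ± 9.08 CPM (SD, n = 3), a log2 fold change of 0.37 (SE 0.11, edgeR adjusted p = 0.037). This passed only narrowly. Scaling by library size alone gave 0.29 (edgeR adjusted p = 0.0933), and leaving out any one library other than shAC007128.1 replicate 3 took the adjusted p above the limit, up to 0.129. The gene shares 571 exonic bases with MIEN1 and 144 with PGAP3, both on the opposite strand, and the use of strand in counting is not given in the sources used here.

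ERBB3, a receptor for neuregulins whose own kinase is weak, lies on chr12:56076799-56103505 (plus strand). Its CPM values were 41.7, 43.8 and 43.8 in shCtrl and 32.5, 38.0 and 30.3 in shAC007128.1. All shAC007128.1 values were below the shCtrl values, and they were spread more widely. Means of 43.1 ± 1.19 and 33.6 ± 3.94 CPM (SD, n = 3) gave a log2 fold change of -0.36 (SE 0.10, edgeR adjusted p = 0.0292). Leaving out any shCtrl library, or shAC007128.1 replicate 1, took the adjusted p above the limit, up to 0.0913.

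**Figure D2:**
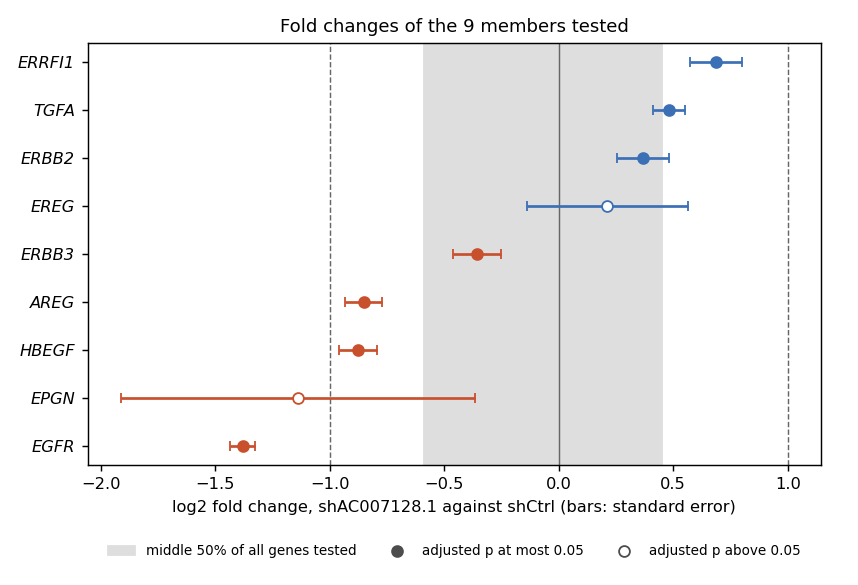
Log2 fold changes of the 9 tested family genes, shAC007128.1 against shCtrl, with standard errors as bars, filled points for those that passed, dashed lines at 2-fold and a grey band for the middle 50% of all genes tested. EGFR was at -1.38 and ERRFI1 at 0.69, and the wide bar of EPGN reflects its few counts.

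The ligands did not move together. AREG and HBEGF were lower in shAC007128.1 cells, TGFA was higher, and EREG, EPGN and BTC were too scarce to tell. AREG encodes amphiregulin, an EGFR ligand typical of epithelial cells, and lies on chr4:74445136-74455005 (plus strand). It stood at 142.8, 143.1 and 133.6 CPM in shCtrl and at 81.5, 79.8 and 71.2 in shAC007128.1. The highest shAC007128.1 library was far below the lowest shCtrl library. The means were 140 ± 5.38 and 77.5 ± 5.52 CPM (SD, n = 3), with a log2 fold change of -0.85 (SE 0.08, edgeR adjusted p = 0.000249). Under the alternatives the value lay between -0.92 and -0.80.

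HBEGF, a heparin-binding ligand of EGFR and ERBB4, lies on chr5:140332843-140346603 (minus strand). Its libraries held 39.1, 37.9 and 37.7 CPM in shCtrl and 20.1, 21.0 and 21.4 in shAC007128.1. Within each group the values were close, and between the groups there was a wide gap. From 38.2 ± 0.759 to 20.8 ± 0.652 CPM (SD, n = 3), the log2 fold change was -0.88 (SE 0.08, edgeR adjusted p = 0.000251). AREG and HBEGF thus fell by similar amounts, to 55.4% and 54.5% of control.

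TGFA, which encodes the classical autocrine EGFR ligand of carcinoma cells, lies on chr2:70447284-70554193 (minus strand). It had 99.5, 101.7 and 95.0 CPM in shCtrl and 135.5, 134.1 and 144.2 in shAC007128.1. No shCtrl library came near the shAC007128.1 range. The mean rose from 98.7 ± 3.39 to 138 ± 5.45 CPM (SD, n = 3), a log2 fold change of 0.48 (SE 0.07, edgeR adjusted p = 0.0015). Over the alternatives the value ranged from 0.41 to 0.51, so the opposite direction of TGFA and of AREG and HBEGF held under each scaling tried.

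EREG encodes epiregulin, a ligand of EGFR and ERBB4, and lies on chr4:74365145-74388749 (plus strand). Its counts were 57, 57 and 61 in shCtrl and 53, 31 and 73 in shAC007128.1, or 0.796 ± 0.0963 and 0.921 ± 0.346 CPM (SD, n = 3). The shAC007128.1 libraries enclosed the shCtrl range. Its log2 fold change was 0.21 (SE 0.35, edgeR adjusted p = 0.664) and became -0.08 without shAC007128.1 replicate 3 (edgeR adjusted p = 0.87).

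EPGN encodes epigen, a low-affinity ligand, and lies on chr4:74308470-74316789 (plus strand). It had counts of 47, 10 and 38 in shCtrl and 5, 8 and 21 in shAC007128.1. The shCtrl libraries alone spanned most of the range, and the groups overlapped. A log2 fold change of -1.14 (SE 0.77, edgeR adjusted p = 0.283) was within that spread, and it was -1.90 without shAC007128.1 replicate 3 (edgeR adjusted p = 0.138). BTC encodes betacellulin and lies on chr4:74744759-74794523 (minus strand). It had counts of 19, 5 and 13 in shCtrl and 0, 0 and 8 in shAC007128.1, and no fold is given because it did not enter the test. It entered some alternatives and was called lower in 1 of them, without shAC007128.1 replicate 3 (edgeR adjusted p = 0.0413), where both shAC007128.1 libraries left were at 0. A library at 0 allows up to 3 counts if each fragment was 1 count. Low counts piled up at 4 in shCtrl replicate 1, the only library tabulated for this. If 1 fragment was more than 1 count in the shAC007128.1 libraries too, the limit would be higher.

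ERRFI1 (MIG6) encodes a protein that binds the kinase of EGFR and its relatives and restrains it, and is induced by EGFR signaling itself. It lies on chr1:8004404-8026309 (minus strand). Levels were 30.6, 40.0 and 36.6 CPM in shCtrl and 54.8, 60.6 and 57.2 in shAC007128.1. The groups were separated, with shCtrl the more variable. The means were 35.8 ± 4.73 and 57.5 ± 2.91 CPM (SD, n = 3), and the log2 fold change of 0.69 (SE 0.11, edgeR adjusted p = 0.00287) lay between 0.58 and 0.77 in the alternatives. Of all genes tested 15.7% had a higher log2 fold change. ERRFI1 shares 155 exonic bases with an antisense lncRNA (ENSG00000284747).

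To compare levels between genes, CPM was divided by the length of the merged exons of each gene in kilobases. On this scale EGFR and AREG led the family in both groups. In shCtrl EGFR was at 101.9 ± 0.518 CPM per kb (SD, n = 3) and AREG at 85.2 ± 3.28. TGFA followed at 20.1 ± 0.69, HBEGF at 12.8 ± 0.254, ERRFI1 at 8.56 ± 1.13, ERBB2 at 6.02 ± 0.55 and ERBB3 at 3.68 ± 0.102. The last 3 were EREG at 0.139, EPGN at 0.134 and BTC at 0.0645 CPM per kb. The values of neighbours in this order did not overlap, except for EREG with EPGN and EPGN with BTC. With the length of the longest transcript ERBB2, at 12.6 CPM per kb, stood above ERRFI1, at 11.5.

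In shAC007128.1 AREG stood first at 47.2 ± 3.36 CPM per kb (SD, n = 3) and EGFR next at 39.1 ± 1.88. With the length of the longest transcript in place of merged exons they were level, at 62.8 and 63.0 CPM per kb. TGFA was at rank 3 with 28.1 ± 1.11 and ERRFI1 at rank 4 with 13.8 ± 0.696. HBEGF, at 6.97 ± 0.218, changed from rank 4 to rank 6, below ERBB2 at 7.76 ± 0.88, although these neighbours overlapped. Among 13591 protein-coding genes tested, EGFR had rank 256 by level per length in shCtrl and rank 939 in shAC007128.1. AREG went from rank 337 to rank 743, and TGFA from rank 2074 to rank 1513.

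**Figure D3:**
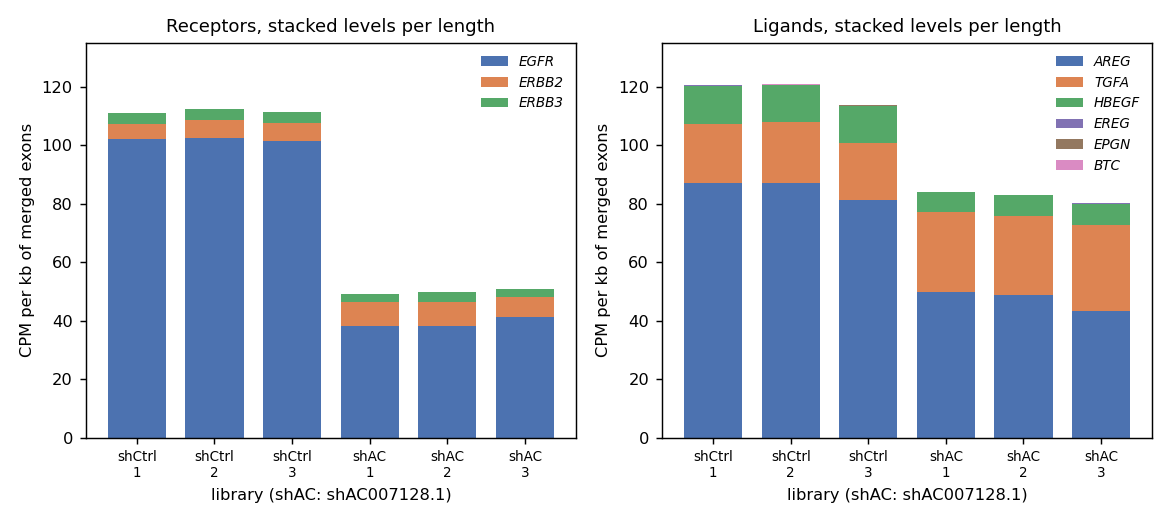
Stacked levels of the receptors (left) and ligands (right) in each library, in TMM-scaled CPM per kb of merged exons. The receptor sum was 111 to 112 in shCtrl and 49.0 to 50.6 in shAC007128.1, and the ligand sum was 114 to 121 and 80.2 to 84.1.

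The make-up of the family differed between the groups. Summed over the 3 receptors, the level was 112 ± 0.777 CPM per kb in shCtrl and 49.8 ± 0.827 in shAC007128.1 (SD, n = 3). EGFR made up 91.3% ± 0.542 of the sum in shCtrl and 78.6% ± 2.59 in shAC007128.1, while ERBB2 made up 5.39% ± 0.467 and 15.6% ± 1.98. The 6 ligands summed to 118 ± 4.04 and 82.5 ± 2.01 CPM per kb. AREG held 71.9% ± 0.329 of the ligand sum in shCtrl and 57.2% ± 2.73 in shAC007128.1. The share of TGFA was 17% ± 0.183 and 34.1% ± 2.16, and that of HBEGF 10.8% ± 0.286 and 8.46% ± 0.461. EREG, EPGN and BTC each held under 0.3% in every library. These sums and shares depend on the length used for each gene. With the longest transcript, EGFR averaged 164 CPM per kb in shCtrl and 63.0 in shAC007128.1, and ERBB2 12.6 and 16.2.

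Ratios within a library do not depend on scaling between libraries. EGFR over ERBB2, per length, was 18.9, 16.2 and 15.9 in shCtrl and 4.64, 4.57 and 6.12 in shAC007128.1. EGFR over ERBB3 was 28.6, 27.4 and 27.1 in shCtrl and 13.7, 11.7 and 15.9 in shAC007128.1. Neither ratio overlapped between the groups. The inhibitor relative to its target, ERRFI1 over EGFR, was 0.0719, 0.0935 and 0.0865 in shCtrl and 0.345, 0.381 and 0.331 in shAC007128.1. The ligand sum over EGFR was 1.18, 1.18 and 1.12 in shCtrl and 2.21, 2.18 and 1.94 in shAC007128.1. AREG over EREG did not overlap either but varied widely, from 517 to 703 in shCtrl and from 197 to 492 in shAC007128.1. These ratios are descriptions with no test.

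**Figure D4:**
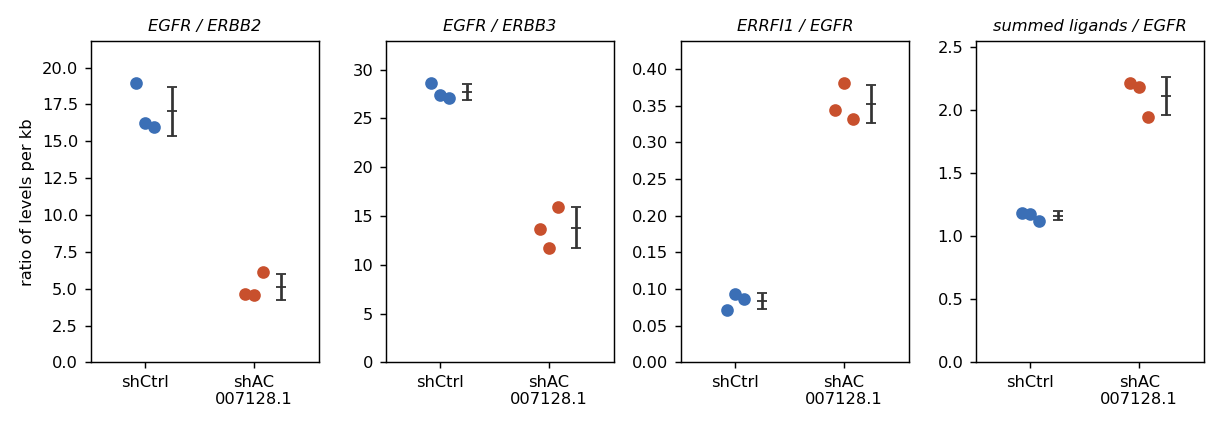
Ratios of per-length levels within each library, with 1 point per library and bars for the mean and SD of shCtrl and shAC007128.1. EGFR over ERBB2 averaged 17.03 and 5.11, and ERRFI1 over EGFR 0.0840 and 0.352, with no overlap between the groups.

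The 4 ligand genes on chromosome 4 lie within 486 kb, and EREG and AREG are 56.4 kb apart. In the region reaching 500 kb beyond them there are 14 protein-coding genes, of which 6 were tested. Besides AREG, the chemokine genes CXCL2 and CXCL3 passed as lower. CXCL2 went from 33.6 ± 1.87 to 5.08 ± 1.20 CPM (SD, n = 3), a log2 fold change of -2.73 (SE 0.18, edgeR adjusted p = 6.45e-05). CXCL3 went from 2.84 ± 0.128 to 1.57 ± 0.175 CPM, with the same log2 fold change as AREG at -0.85 (SE 0.19, edgeR adjusted p = 0.00954). MTHFD2L, a mitochondrial folate enzyme gene between CXCL2 and EPGN, did not pass at -0.42 (SE 0.31, edgeR adjusted p = 0.323).

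Profiles over the 6 libraries were compared with that of EGFR by the root mean square difference of log2 CPM centred on the gene mean. The 5 closest protein-coding genes were DDX19B (0.0228), CDCP1 (0.0273), RPL22L1 (0.0373), F3 (0.0402) and TNFSF15 (0.0445). All 5 were called lower, with log2 fold changes of -1.42 to -1.32, near the -1.38 of EGFR. CDCP1, a membrane glycoprotein gene, went from 514 ± 6.75 to 204 ± 9.71 CPM (SD, n = 3). F3, which encodes tissue factor, went from 628 ± 2.78 to 252 ± 16.1 CPM. The libraries fall into 2 groups, so this measure follows the difference between them.

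Of the other receptors and ligands of the family, NRG1 had the highest level, at 8.63 ± 0.534 CPM per kb in shCtrl and 5.71 ± 1.06 in shAC007128.1 (SD, n = 3). NRG1 encodes neuregulin 1, which binds ERBB3 and ERBB4, and fell from 185 ± 11.4 to 122 ± 22.6 CPM (SD, n = 3), a log2 fold change of -0.60 (SE 0.14, edgeR adjusted p = 0.0121). NRG2 had 0.46 (edgeR adjusted p = 0.0576) and NRG4 1.18 (edgeR adjusted p = 0.0819), and neither passed. NRG2 passed with DESeq2 (adjusted p = 0.0428) and limma-voom (adjusted p = 0.0459), and NRG4 under no alternative. NRG4 shares 1918 exonic bases with FBXO22. ERBB4, EGF and NRG3 were removed by the filter, with at most 9 counts in any library.

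Among 10 genes for ligand shedding, 9 were tested, of which 1 passed as higher and 1 as lower, beside 21% and 19.8% of all genes. The lower gene was ADAM17, the main sheddase of AREG, TGFA and HBEGF, at 227, 241 and 231 CPM in shCtrl and 131, 124 and 138 in shAC007128.1. The groups were well separated, with a log2 fold change of -0.83 (SE 0.07, edgeR adjusted p = 0.000154). It shares 1645 exonic bases with IAH1 on the opposite strand. The higher gene was ADAM12, from 0.118 ± 0.0872 to 0.524 ± 0.202 CPM (SD, n = 3), with few counts behind it (log2 fold change 2.13, edgeR adjusted p = 0.0343), and did not pass without shCtrl replicate 2 or 3 or shAC007128.1 replicate 1 or 3. Without shAC007128.1 replicate 3, 2 shedding genes passed as lower.

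All 22 adaptors and enzymes recruited to the receptors were tested, and 11 passed as higher and none as lower, where 21% and 19.8% of all genes did. With 1 library left out, 8 (without shCtrl replicate 1) to 12 (without shAC007128.1 replicate 1) passed as higher. With glmTreat 6 did, and none passed as lower in these settings. The median log2 fold change was 0.26, against -0.02 over all genes tested, and 3 were called higher, where 5.57% of all genes were. STAT3, a transcription factor downstream of the receptors, went from 133 ± 3.10 to 228 ± 7.79 CPM (SD, n = 3), with a log2 fold change of 0.78 (SE 0.06, edgeR adjusted p = 0.000137). PLCG1, a phospholipase that docks on active receptors, was at 0.97 (edgeR adjusted p = 0.000229). VAV3, a guanine nucleotide exchange factor, was at 1.004 (edgeR adjusted p = 0.000468), and GAB1, a docking protein for PI3K, at 1.07 (edgeR adjusted p = 0.000564). Both were below 2-fold in some alternatives, among them scaling by library size only (0.93 for VAV3 and 0.99 for GAB1). The remaining called gene, PIK3R1, a regulatory subunit of PI3K, was chosen after its value was seen and had 1.46 (edgeR adjusted p = 0.000906).

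Genes for the control of receptor activity and turnover, among them ubiquitin ligases, sorting proteins and phosphatases, passed in both directions. Of 25 tested, 6 passed as higher and 7 as lower, beside 21% and 19.8% of all genes. None was called, where 5.57% of all genes were called higher and 10.1% lower. The median log2 fold change was -0.09. Without shAC007128.1 replicate 3 the number passing as lower was 11, with 6 still passing as higher. On the lower side were the endosomal sorting genes TSG101 (log2 fold change -0.50) and STAM2 (-0.68), the ubiquitin ligase gene CBLC (-0.57) and the endocytic adaptor gene EPN1 (-0.63). On the higher side were the phosphatase gene PTPRK (0.87), UBASH3B (0.68), STAM (0.52) and SOCS5 (0.59). The paralogs STAM and STAM2 thus passed in opposite directions.

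Of 31 genes for other receptor tyrosine kinases, 22 were tested, with 7 passing as higher and 3 as lower, beside 21% and 19.8% of all genes, and a median log2 fold change of -0.02. Without shCtrl replicate 3, 4 passed as higher. MET, the receptor for hepatocyte growth factor, was at 339 ± 2.70 CPM in shCtrl and 268 ± 20.1 in shAC007128.1 (SD, n = 3), a log2 fold change of -0.34 (SE 0.07, edgeR adjusted p = 0.00785). FGFR4 was lower at -0.91, and PDGFRB, at under 0.5 CPM on average, at -1.60 (edgeR adjusted p = 0.0474), which passed with a library left out only without shAC007128.1 replicate 2. FGFR3 was called higher, from 5.55 ± 1.62 to 20.2 ± 2.14 CPM, at 1.87 (SE 0.23, edgeR adjusted p = 0.000807). NTRK2 was also called higher at 2.86, from 0.128 CPM in shCtrl, and ROR1 and IGF1R passed at 0.68 and 0.31.

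**Figure D5:**
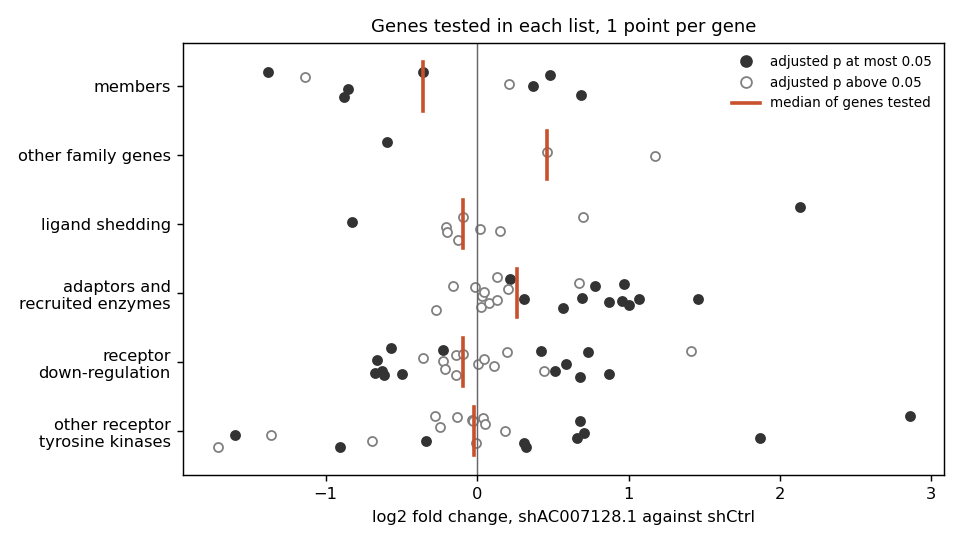
Log2 fold changes of the tested genes in each list, with 1 point per gene, filled where it passed, and a vertical line at the median of each list. The adaptor list had 11 of 22 passing as higher and none as lower, while the other lists held genes on both sides or, for the other family members, 1 gene passing as lower.

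Other measures also differed between the groups, although the mitochondrial share of counts overlapped. Summed squamous epithelial markers were 1906 to 1978 CPM in shCtrl and 2731 to 3279 in shAC007128.1. Of these 10 genes 6 passed as higher and 1 as lower, beside 21% and 19.8% of all genes. The called markers also split, with 3 called higher and 1 lower, where 5.57% and 10.1% of all genes were. Summed fibroblast markers were 15.3 to 16.1 and 20.9 to 23.9 CPM, and endothelial markers 2.16 to 3.11 and 0.587 to 2.02. The leukocyte markers summed to 59.1 to 68.0 and 14.5 to 23.9 CPM, nearly all from CD68. The mitochondrial share of counts was 9.69 to 10.2% in shCtrl and 7.68 to 9.72% in shAC007128.1, and 26842 to 27494 genes had a count in shCtrl against 24623 to 24940 in the shallower shAC007128.1 libraries. The part of these measures in the results was not tested.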

How the data were processed

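Paired-end TruSeq libraries were prepared from poly-A RNA of KYSE150 cells. The authors mapped filtered reads to hg38 with TopHat v2.0.9, allowing 2 mismatches, while the submitters' processing notes name TopHat2 2.0.6, CASAVA 1.8, GRCh38 and mm10. The deposited table lists an estimated count for each Ensembl gene, whole and not normalized, and their counting program, annotation and use of strand are not given in the sources used here. In shCtrl replicate 1, 761, 1355 and 993 genes had a count of 3, 4 and 5, so counts divided by 4 were also tried.

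Groups came from the sample titles and descriptions, with 3 samples each and 0 unmapped columns. Positions and exon lengths are from GENCODE v44 (60357 identifiers found, 89.9%). Genes were filtered with filterByExpr, which removed 47886, scaled with TMM factors, and 19254 were tested by quasi-likelihood in edgeR 4.0.16 (R 4.3.3), adjusted by Benjamini-Hochberg. Standard errors are the log2 fold change over the root of F. The steps were tested on simulated data. The smallest detectable level, 3 counts, covers counting error only and assumes 1 count per fragment. Promoter sequences were read from RefSeq, and motif matches were found by searching these sequences for the letters of the 4 motifs on either strand.

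The members and lists were chosen with earlier results of these data known, and a marker gene is not reported here. Named genes are the 10 members, AC007128.1, the rest of the family, in each other list up to 4 passed genes per direction with the smallest p, tested protein-coding genes within 500 kb of the chromosome 4 members, and the 5 genes closest in profile to EGFR whose log2 CPM averaged 1 or more. Alternatives were DESeq2 1.42.0 and its size factors, limma-voom (limma 3.58.1), scaling by library size only, a filter of 10 counts in each sample or none, the replicate block, counts divided by 4, glmTreat against a 1.5-fold change, no limit on fold change, the longest transcript as length, and each sample left out.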

Additional observations from a re-analysis of the deposited data

How the results depend on the processing

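Directions of the family genes held under every alternative in which they were tested, except EREG, whose log2 fold change was -0.0849 to 0.471 with each sample left out and negative only without shAC007128.1 replicate 3 (adjusted p = 0.87). The count of family genes called lower, 1, was 3 with glmTreat, 4 with no limit on fold change and 1 to 2 with each sample left out, and the count called higher, 0, was 3 with no limit on fold change. In the other pathway lists 6 genes were called higher: 3 with a filter of 10 counts in each sample, 25 with no limit, and 4 to 7 with each sample left out. The 1 gene called lower there, PDGFRB, gave way to 0 with limma-voom, with the filter of 10 counts and after division by 4, to 0 to 1 with each sample left out, to 2 with glmTreat and to 12 with no limit. Over all genes tested 5.57% were called higher and 10.1% lower, and 21% and 19.8% with no limit on fold change. The level of EGFR per kb in shCtrl was 164 with the longest transcript and 104.5 with library size only, and that in shAC007128.1 was 63.0 with the longest transcript, where EGFR over ERBB2 was 13.1 and 3.93. With glmTreat, which tests against a 1.5-fold change, ERRFI1 did not pass, nor did ERBB2, ERBB3 and TGFA, which differed less than 1.5-fold. A changed fold limit or gene length alters these values by definition, and the cause of the other changes was not tested. Library size only moved the median log2 fold change of all genes tested from -0.02 to -0.10. With no filter the median was -0.15, over a larger set of 34756 genes in place of 19254. With the replicate number as a block, ERBB2 had 0.36 and did not pass (edgeR adjusted p = 0.0757), AC007128.1 had -0.82 (adjusted p = 0.363), EGFR had -1.38 (adjusted p = 0.000712), and 0 list genes were called lower. Deviations of samples with the same number correlated at 0.0306, -0.0254 and -0.0299, so the numbers were not taken as pairs.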

Other observations

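Estimated counts of 3 genes near the family's biology were unsteady within a group, and were chosen after their values were seen. CBL, the ubiquitin ligase gene that marks EGFR for degradation, had 147, 34.9 and 31.2 CPM in shCtrl and 173, 201 and 192 in shAC007128.1. The groups did not overlap, as in 55.2% of all genes, but its log2 fold change of 1.41 did not pass (edgeR adjusted p = 0.086). GRB2, the adaptor gene that links the receptors to RAS, had 171, 61.2 and 151 CPM in shCtrl and 169, 59.4 and 163 in shAC007128.1, low in replicate 2 of both groups. TP63, the squamous lineage factor, had 96.0, 99.6 and 182 CPM in shCtrl and 99.9, 102 and 111 in shAC007128.1.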
